A study of Rattus norvegicus with 320 samples.

Results

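The candidate miRNA rno_miR_chr20_23611 was counted in all 32 adrenal gland libraries of a rat organ series, at 33.2 ± 9.94 CPM (counts per 1000000 counts of the library; SD, n = 32). In the other 10 organs it was at 0 in 239 of 286 libraries and never above 3 counts. It is 1 of the 616 miRNAs in the count table, which lists 604 known miRNAs and 12 candidates that the authors predicted from their reads. They kept a candidate only where it was higher in 1 organ than in all others at each age. This candidate was picked out for its adrenal pattern at the 4 ages, so its levels by organ are given as a description, without a test. The choice used the same adrenal values, but compared them with other organs. Differences between ages and between sexes within the adrenal gland are another contrast and were tested, with earlier results of these data known.

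MicroRNAs are short RNAs cut from hairpin precursors, and they guide Argonaute proteins to messenger RNAs mainly through the seed, bases 2 to 8 from the 5′ end. Paired seed sites in a messenger RNA usually lower its translation or stability. The adrenal gland joins a cortex that makes steroid hormones to a medulla of chromaffin cells, which arise from the neural crest and release catecholamines.

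The animals were untreated Fischer 344 rats, kept in pairs, with 4 females and 4 males killed at each of 2, 6, 21 and 104 weeks of age. Each replicate was a separate rat, and 10 organs were taken from every rat, so that testis or uterus completed the set. Organ tissue was ground, and small RNA libraries were sequenced from its total RNA, 320 in all. The adrenal libraries held 1710833 to 6151075 counts, with a median of 3452079, and the other kept libraries 315550 to 10571766. The question put to the adrenal libraries was whether the candidate differed between ages or sexes.

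Some libraries stood apart. Brain replicate 3 of males at week 6 and spleen replicate 4 of females at week 104 had been removed by the authors. In the authors' clustering both grouped with uterus and not with their own organ. These libraries are left out here unless named. Replicate 1 of males at week 21 had a TMM effective library size of only 0.488 times its column total, the lowest ratio of the 32 adrenal libraries. TMM is edgeR's trimmed mean scaling, which sets library sizes so that most miRNAs do not change. Replicate 3 of the same group held 1628 CPM of striated muscle miRNAs, the highest adrenal value, against 33.4 to 428 CPM in the other adrenal libraries. Female week 2 replicate 3 was the highest in the liver miRNA miR-122-5p, at 933 CPM, and in the sum of miR-192-5p, miR-194-5p and miR-196a-5p, at 3803 CPM. That sum was listed for kidney epithelium, but its highest organ was liver, at 224072 CPM, and it does not set kidney apart from liver. Female week 6 replicate 3 was the highest in nervous tissue miRNAs, at 3374 CPM, and in epithelial miRNAs, at 136 CPM. Age steps of the candidate are therefore also given without these adrenal libraries.

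The mature sequence of the candidate has 23 bases, with the seed in capitals. It is shown beside the table's closest relatives by seed and by shared run, because neither the seed nor a longer stretch placed it in a known family.
rno_miR_chr20_23611: uGUGCCCUguucccccucccugc
rno-miR-18a-3p: aCUGCCCUaagugcuccuucu
rno_miR_chr1_3858: cCUCCCUGucuccucccugcag
The candidate had 12 C, 7 U, 4 G and 0 A. Its C content of 52.2% compared with a median of 22.7% over the table, and 8 of the 616 miRNAs had a higher C content. None of the other table sequences, and none of 724 rat mature sequences in RefSeq (build GRCr8), had the same bases 2 to 8. In both sets only miR-18a-3p, which comes from the miR-17-92 cluster, shared bases 3 to 8. The longest run in common with any other table sequence was CCUCCCUGC, 9 bases, in rno_miR_chr1_3858, a candidate with 3 counts in all adrenal libraries together. No window of 16 bases matched another table sequence, a RefSeq mature sequence or any of 419 RefSeq hairpins with at most 1 mismatch. The name places the candidate on chromosome 20 of the rat build Rn7. The authors list a precursor and a position for it. These were not checked here, since no Rn7 genome was used, and overlap with a gene was not examined.

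In the adrenal gland the candidate ranked at 204 of 616 miRNAs by mean CPM. The miRNAs directly above it were miR-499-5p at 34.2 CPM and miR-129-5p at 33.8 CPM, and those directly below were miR-140-5p at 32.9 CPM and miR-99b-3p at 32.6 CPM. These neighbours differed from it by far less than its SD of 9.94 CPM. The most abundant adrenal miRNA was miR-10b-5p, a miRNA of the Hox gene clusters, with 31.8 ± 5.31% of counts (SD, n = 32). The other 11 candidates had been kept for other organs, and that choice bounded their adrenal levels. They had 0 to 187 counts over the 32 libraries, and the highest mean was 1.67 CPM for rno_miR_chrX_48468.

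The label of the tissue was checked with miRNAs of neuroendocrine cells, a cell type that includes the adrenal medulla. The summed level of miR-375-3p and miR-7a-5p was 5826 ± 1450 CPM (SD, n = 32) in adrenal gland, the highest mean of the 11 organs. That rank rested on miR-375-3p, which was highest in adrenal gland, at 5478 CPM. The other, miR-7a-5p, was highest in brain, at 476 CPM, against 347 CPM in adrenal gland. Neither miRNA was at 0 in any adrenal library. These were bulk samples, so fewer cells of a type and less RNA per cell cannot be told apart.

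At week 2, the female libraries were at 25.7, 32.3, 30.4 and 37.2 CPM, from 80, 110, 78 and 91 counts. The male libraries of that age were at 33.4, 36.1, 25.1 and 42.5 CPM, from 137, 105, 71 and 121 counts. The sexes overlapped, and the mean of all 8 libraries was 32.8 ± 5.87 CPM (SD, n = 8).

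At week 6, the females were at 21.3, 43.3, 48.7 and 49.8 CPM, from 106, 74, 151 and 227 counts. The males were at 53.3, 32.4, 40.8 and 47.7 CPM, from 244, 96, 141 and 163 counts. Most libraries of this age were high and female replicate 1 was low, below every week 2 library. The mean was 42.2 ± 10.6 CPM (SD, n = 8), and male replicate 1 had the highest CPM of all 32 libraries.

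At week 21, the females were at 20.2, 36.4, 36.4 and 29.9 CPM, from 124, 209, 110 and 168 counts. The males were at 26.6, 18.7, 14.2 and 29.6 CPM, from 127, 109, 44 and 145 counts. All 8 libraries lay below the week 6 median of 45.5 CPM. Male replicate 3, the library rich in striated muscle miRNAs, had the lowest count in the adrenal gland. The mean was 26.5 ± 8.18 CPM (SD, n = 8).

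At week 104, the females were at 35.7, 43.2, 32.5 and 26.2 CPM, from 174, 118, 80 and 123 counts. The males were at 33.7, 28.01, 36.3 and 14.0 CPM, from 116, 168, 215 and 73 counts. Male replicate 4 had the lowest CPM of the 32 libraries, 6 lay within the range of week 2, and female replicate 2 lay above it. The mean was 31.2 ± 8.70 CPM (SD, n = 8).

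Ordered by mean CPM, week 6 came highest, followed by weeks 2, 104 and 21. On the TMM scale week 6 was again highest, at 38.4 ± 7.58 CPM, followed by week 104 at 33.5 ± 6.77, week 21 at 31.6 ± 11.07 and week 2 at 27.6 ± 6.47 CPM (SD, n = 8 each), so that week 2 came last. Neighbours in either order differed by less than the larger of their SDs. On CPM, counting error was smaller than the spread between rats: the Poisson coefficient of variation of a library was 6.40 to 15.1%, and that between rats was 15.2 to 35.5% and above that of each library in all 8 groups. On the TMM scale this held in 7 of 8 groups. Females at week 104 had a spread of 3.23%, below the counting error of each of their libraries (7.58 to 11.2%).

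**Figure D1:**
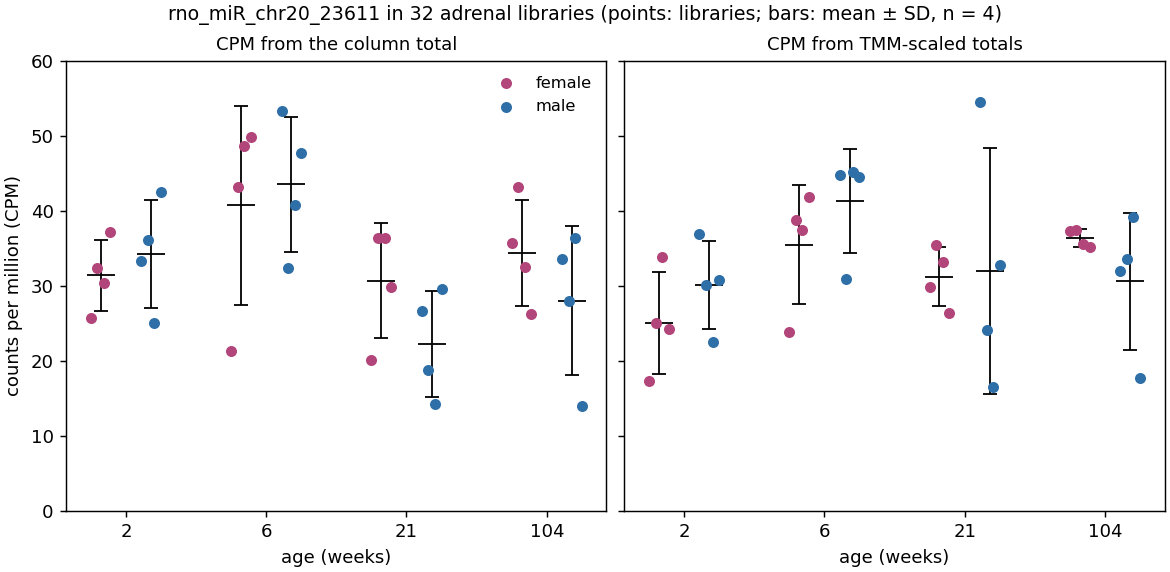
Candidate level in each adrenal library by age in weeks (points; females and males apart) with the mean ± SD of 4 rats, as CPM from column totals (left) and from TMM-scaled totals (right). Week 6 is highest on both scales, at 42.2 and 38.4 CPM, while male replicate 1 of week 21 moves from 26.6 to 54.6 CPM between them.

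From week 2 to week 6 the candidate rose in the adrenal gland, by a log2 fold change of 0.48 (SE 0.19) or 1.40-fold, with 5 of 8 week 6 libraries above every week 2 library on CPM and 6 of 8 on the TMM scale. The edgeR quasi-likelihood test gave an adjusted p of 0.0498 over all 616 miRNAs. In this comparison 32.3% of all miRNAs were called in either direction and 15.1% as higher, and the candidate ranked last by p among the 199 called. A call of this kind was therefore common in the table. The same step missed the threshold with a replicate block (adjusted p 0.0621 in edgeR) and with lane as a further term (adjusted p 0.177 in edgeR), at the same log2 fold change of 0.48. The call ended without 22 of the 32 libraries when each was left out in turn, at adjusted p of 0.0502 to 0.116 in edgeR, while the log2 fold change was 0.41 to 0.57 throughout. It held without female week 2 replicate 3, female week 6 replicate 1, female week 21 replicate 1, male week 2 replicate 1, male week 6 replicate 2, male week 21 replicates 1, 2 or 3, and male week 104 replicates 2 or 4. Without female week 2 replicate 3, the library highest in miR-122-5p, it was 0.57 (SE 0.20), with an adjusted p of 0.0251 in edgeR. Without female week 6 replicate 3 it was 0.47 (SE 0.20), with an adjusted p of 0.0770 in edgeR, and the call was lost.

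From week 6 to week 21 the log2 fold change was −0.28 (SE 0.19), with an adjusted p of 0.328 in edgeR, and 19.6% of miRNAs were called. Without female week 6 replicate 3 it was −0.27 (SE 0.20), with an adjusted p of 0.420 in edgeR. Without replicate 1 of males at week 21 it was −0.47 (SE 0.17), with an adjusted p of 0.0565 in edgeR. Without replicate 3 of that group it was −0.18 (SE 0.18), with an adjusted p of 0.546 in edgeR. With both left out it was −0.36 (SE 0.18), with an adjusted p of 0.163 in edgeR, so the size of this step depended on which of these libraries was kept.

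From week 21 to week 104 the log2 fold change was 0.08 (SE 0.19), with an adjusted p of 0.868 in edgeR, beside 15.9% of miRNAs called. Without male week 21 replicate 1 it was 0.28 (SE 0.17), with an adjusted p of 0.298 in edgeR, and without replicate 3 of that group it was −0.02 (SE 0.18). From week 2 to week 104 it was 0.29 (SE 0.19), with an adjusted p of 0.232 in edgeR, in the comparison with 45.0% of miRNAs called. Without female week 2 replicate 3 it was 0.37 (SE 0.19), with an adjusted p of 0.127 in edgeR. On CPM 4 of 8 week 104 libraries lay above the week 2 median, and on the TMM scale 7 of 8. A joint test of any difference between the 4 ages gave an adjusted p of 0.147 in edgeR, where 59.9% of miRNAs were called. That value was 0.0284 in edgeR without male week 21 replicate 1.

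Females and males were at 34.3 ± 8.87 and 32.02 ± 11.1 CPM (SD, n = 16 each). On the TMM scale, which the test used, the order was the other way, at 32.05 ± 6.82 and 33.5 ± 10.47 CPM (SD, n = 16 each). The log2 fold change of males over females was 0.07 (SE 0.13), with a 95% interval of −0.19 to 0.33 and an adjusted p of 0.891 in edgeR; 5.03% of miRNAs were called. Without male week 21 replicate 1 it was −0.05 (SE 0.12). The interaction of sex and age had an adjusted p of 0.769 in edgeR, with 2.11% of miRNAs called. The widest gap between the sexes in mean CPM was at week 21, where females were at 30.7 ± 7.68 and males at 22.3 ± 7.07 CPM (SD, n = 4 each). On the TMM scale the same groups were at 31.2 ± 3.93 and 31.99 ± 16.4 CPM (SD, n = 4 each).

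The way libraries were scaled decided which age step passed the test. With column totals alone, the median log2 fold change of all miRNAs was −0.24 from week 2 to 6, −0.34 from week 6 to 21, −0.43 from week 2 to 104 and −0.18 for males over females. The candidate was then at 0.36 (SE 0.21) from week 2 to 6, with an adjusted p of 0.205 in edgeR. It was at −0.69 (SE 0.21) from week 6 to 21, with an adjusted p of 0.0203 in edgeR. From week 2 to 104 it was at −0.08 (SE 0.21), on the other side of 0 from the TMM value. A change of scaling moves all miRNAs by about the same amount, so values relative to the median of all miRNAs come close to each other by construction, which says nothing of how stable the candidate was. On this relative scale the rise to week 6 was 0.56 with TMM and 0.60 with column totals, and the step to week 21 was −0.28 and −0.35. From week 2 to 104 the relative values were 0.34 and 0.35, and for males over females 0.09 and 0.05. Column totals also shifted the calls of the whole table downwards. With TMM, 93 miRNAs were called higher and 106 lower from week 2 to 6, against 55 and 120 with column totals. From week 6 to 21 they were 58 and 63, against 18 and 112.

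**Figure D2:**
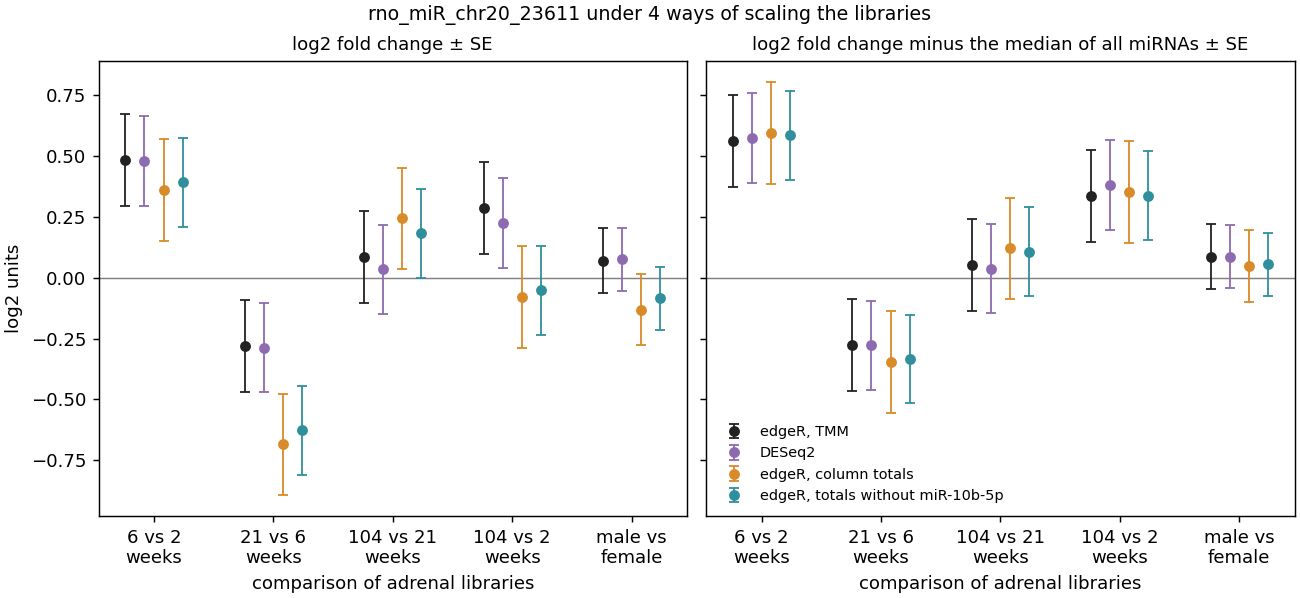
Candidate log2 fold change ± SE for 4 age comparisons and for males over females, with 4 ways of scaling the 32 adrenal libraries, as fitted (left) and after subtracting the median of all miRNAs (right). As fitted, the step from week 6 to 21 runs from −0.28 to −0.69, and relative to the median it runs from −0.28 to −0.35.

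The share of miR-10b-5p varied between adrenal libraries from 22.3 to 42.5% of counts, which moves the CPM of every other miRNA. Over the 32 libraries the candidate's CPM was lower where that of miR-10b-5p was higher. The Pearson r was −0.52 (permutation p = 0.00231, adjusted p = 0.0287) and the Spearman rho −0.56 (permutation p = 0.00117, adjusted p = 0.0132). Without the 2 libraries farthest from the median of miR-10b-5p, r was −0.47. On TMM-scaled CPM rho was 0.01, and with miR-10b-5p left out of the totals it was −0.35. The relation was thus nearly absent on the TMM scale, and no p was computed on these other scales. Because miR-10b-5p is part of every CPM total, a negative relation on CPM is partly built in. The permutations do not separate that part.

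Across the 394 known miRNAs with a mean of at least 10 adrenal counts, 123 relations to the candidate had an adjusted p under 0.05, 122 of them positive. The median rho was 0.35 on CPM and 0.01 on TMM-scaled CPM. The miRNA most closely related on CPM by rho was miR-98-3p, the other strand of a let-7 family precursor. It had an r of 0.68 (permutation p = 3.0e-05, adjusted p = 0.00591) and a rho of 0.75 (permutation p = 1e-05, the smallest that the permutations can give; adjusted p = 0.00263). Without the 2 farthest libraries its r was 0.77, and its rho was 0.37 on TMM-scaled CPM and 0.67 without miR-10b-5p in the totals.

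The next by rho was miR-128-3p, which is abundant in neurons and had the slightly higher r. Its r was 0.69 (permutation p = 5.0e-05, adjusted p = 0.00591) and its rho 0.71 (permutation p = 2.0e-05, adjusted p = 0.00263). Without the 2 farthest libraries r was 0.68, and rho was 0.35 on the TMM scale and 0.57 without miR-10b-5p in the totals. For miR-425-3p, r was 0.63 (permutation p = 1.0e-04, adjusted p = 0.00722) and rho 0.70 (permutation p = 2.0e-05, adjusted p = 0.00263), with r at 0.63 without the 2 farthest libraries and rho at 0.32 on the TMM scale and 0.53 without miR-10b-5p in the totals. Within-group r was taken on log2(CPM + 1) and not on CPM, as deviations from the means of the 8 groups of sex and age. It was 0.43, 0.42 and 0.41 for these 3 miRNAs, and −0.53 for miR-10b-5p.

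The remaining negative relations were weak. For miR-488-3p, r was −0.30 (permutation p = 0.0991, adjusted p = 0.204) and rho −0.35 (permutation p = 0.0495, adjusted p = 0.101), with r at −0.36 without the 2 farthest libraries. For miR-10a-5p, the close relative of miR-10b-5p, r was −0.29 (permutation p = 0.110, adjusted p = 0.223) and rho −0.32 (permutation p = 0.0752, adjusted p = 0.135), with r at −0.36 without the 2 farthest. Neither passed the adjustment. Deviations of log2(CPM + 1) from the means of the groups of sex and age gave an r of −0.008 for miR-488-3p and −0.061 for miR-10a-5p. On TMM-scaled CPM rho was −0.14 for miR-488-3p and 0.09 for miR-10a-5p, and without miR-10b-5p in the totals −0.43 and −0.38.

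Lanes were not evenly spread over ages. The libraries were sequenced in 8 lanes with 4 adrenal libraries each, and the 4 of lane 8 were all from week 6, with a mean of 43.0 CPM. The 4 of lane 1 were all male, with a mean of 24.6 CPM, the lowest of the lanes. On the TMM scale their mean was 34.6 CPM, above the adrenal mean of 32.8 CPM. That order rested on male week 21 replicate 1, at 54.6 CPM on this scale, while the rest of the lane lay at 17.7 to 33.5 CPM. Relations were not computed within lanes, which held 4 adrenal libraries each. With lane as a further term, so that ages were compared within lanes, the step from week 2 to 6 was 0.48 (SE 0.25), with an adjusted p of 0.177 in edgeR. The step from week 6 to 21 was then −0.47 (SE 0.28), with an adjusted p of 0.370 in edgeR, and that from week 2 to 104 was 0.09 (SE 0.23), with an adjusted p of 0.847 in edgeR. Without the lane 8 libraries the step from week 2 to 6 was 0.47 (SE 0.24), with an adjusted p of 0.172 in edgeR. The size of that step was thus similar with 4 week 6 libraries fewer, and the test was no longer passed.

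Markers of other cell types also moved with age. All 4 nervous tissue miRNAs (miR-124-3p, miR-9a-5p, miR-9a-3p and miR-128-3p) rose from week 2 to 6 at an adjusted p under 0.05 in edgeR, although miR-128-3p did not pass with column totals. Of all miRNAs, 15.1% were called higher in this step with TMM, 17.3% of those tested with DESeq2 and 8.93% with column totals. All 4 fell from week 6 to 21 under each scaling, where 10.2% of all miRNAs were called lower with TMM and 18.2% with column totals. Without female week 6 replicate 3, where 47 of 616 miRNAs were called lower, 2 of the 4 passed. Their summed level at week 2 ran from 679 over a median of 1060 to 2269 CPM, and at week 6 from 1378 over 1812 to 3374 CPM. At week 21 it ran from 197 over 867 to 1457 CPM, and at week 104 from 457 over 761 to 2048 CPM. The list was thus highest at week 6, as was the candidate, and lowest in male week 21 replicate 1. Its most abundant member was miR-128-3p at 1154 CPM, and miR-9a-3p was at 0 in 1 library. In brain the list summed to 89426 CPM.

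All 3 red blood cell miRNAs (miR-451-5p, miR-144-3p and miR-486) rose from week 2 to 6 by the same test, beside the same 15.1% of all miRNAs, except miR-486 with column totals. None passed it from week 6 to 21, except that miR-486 fell with column totals, with or without miR-10b-5p in them. Of all miRNAs, 18.2% were called lower in this step with column totals, and 114 of 615 without miR-10b-5p. The sum of the red blood cell list ran from 1610 over a median of 2647 to 4909 CPM at week 2 and from 3120 over 4257 to 5527 CPM at week 6. It ran from 1594 over 2184 to 3819 CPM at week 21 and from 1371 over 2180 to 5442 CPM at week 104. The most abundant was miR-486, at 2852 CPM, and no member was at 0 in any adrenal library. The epithelial list was low, at 39.0 ± 22.5 CPM (SD, n = 32). From week 2 to 6, 2 of its 3 members, miR-200a-3p and miR-429, rose, beside 15.1% of all miRNAs. Only miR-200a-3p did so with column totals, without female week 2 replicate 3 or without female week 6 replicate 3. Of all miRNAs, 8.93% were called higher with column totals, 90 of 616 without the former library and 83 of 616 without the latter. Both miR-200a-3p and miR-429 were highest in brain, at 1447 and 2771 CPM, so they do not set epithelium apart from brain. The third member, miR-200b-3p, was highest in kidney, at 3634 CPM, and was not called in this step. With column totals, or without male week 21 replicate 1, miR-200b-3p and miR-429 fell from week 6 to 21. Of all miRNAs, 18.2% were called lower in this step with column totals, and 60 of 616 without that library. The sum of the epithelial list ran from 20.2 over 45.9 to 72.5 CPM at week 2 and from 22.3 over 38.7 to 136 CPM at week 6. It ran from 14.9 over 26.5 to 45.7 CPM at week 21 and from 19.1 over 34.4 to 44.9 CPM at week 104. Its most abundant member was miR-200b-3p at 17.2 CPM, and none was at 0. The part of these 3 lists in the candidate's rise at week 6 was not tested.

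From week 6 to 21, all 3 striated muscle miRNAs (miR-1-3p, miR-133a-3p and miR-206-3p) rose with TMM, 2 with DESeq2, 1 with column totals, 2 with TMM without female week 6 replicate 3 and 0 with TMM once male replicate 3 was left out. Of all miRNAs, 9.42% were called higher in this step with TMM, 11.3% of those tested with DESeq2 and 2.92% with column totals. With TMM, 42 of 616 were called higher without female week 6 replicate 3 and 57 of 616 without male replicate 3. The striated muscle sums ran from 55.5 over a median of 71.9 to 120 CPM at week 6 and from 40.7 over 103 to 1628 CPM at week 21. The sums were from 46.0 over 74.8 to 428 CPM at week 2 and from 33.4 over 61.7 to 267 CPM at week 104. The most abundant was miR-133a-3p at 154 CPM, and miR-206-3p was at 0 in 10 libraries. The value of 1628 CPM belonged to male replicate 3, whose candidate level was 14.2 CPM. That library also had 421 CPM of the liver miRNA miR-122-5p, against a week 21 median of 20.1 CPM, and 2547 CPM of the miR-192-5p list, which is highest in liver as well, against a median of 473 CPM. Levels of this kind occurred at other ages. Female week 2 replicate 3 had more of both, and the miR-192-5p list was also higher in male week 6 replicate 2, at 2877 CPM, and in male week 2 replicate 3, at 2629 CPM. The part of these lists in the candidate's age steps was not tested.

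The other lists moved in part. With TMM, 15.1% of all miRNAs were called higher from week 2 to 6 and 9.42% from week 6 to 21. In the lymphocyte list miR-142-3p rose from week 2 to 6 and miR-150-5p from week 6 to 21. The endothelial miR-126a-3p rose from week 6 to 21, with a log2 fold change of 0.49 (SE 0.17), as did the neuroendocrine miR-7a-5p, with 0.74 (SE 0.25). Of these, only the rise of miR-142-3p was also called with column totals. The calls of miR-126a-3p and miR-7a-5p were lost without male week 21 replicate 1, that of miR-7a-5p also without female week 6 replicate 3, and that of miR-150-5p without male week 21 replicate 3. The smooth muscle miRNAs miR-143-3p and miR-145-5p, miR-192-5p, miR-194-5p and miR-196a-5p, miR-122-5p and the neuroendocrine miR-375-3p passed the test in neither step with TMM. With DESeq2 and with column totals miR-122-5p and miR-375-3p fell from week 2 to 6, beside 21.0 and 19.5% of the miRNAs tested called lower. With DESeq2 alone miR-145-5p rose from week 6 to 21, beside 11.3% of those tested called higher. Without male week 21 replicate 1, TMM also called the falls of miR-122-5p and miR-375-3p from week 2 to 6. In the same fit miR-143-3p, miR-145-5p and miR-126a-3p rose in that step, where 111 of all 616 miRNAs were called higher and 125 lower. Without male week 21 replicate 3, TMM called the fall of miR-122-5p, beside 109 of 616 called lower. The neuroendocrine sum ran from 5436 over a median of 6791 to 8264 CPM at week 2 and from 3681 over 5025 to 6228 CPM at week 6. It ran from 3894 over 4670 to 5643 CPM at week 21 and from 4094 over 7659 to 8176 CPM at week 104. On CPM the list was thus lower at week 6 than at week 2, while the candidate was higher. With TMM neither member was called in that step, at log2 fold changes of −0.36 (SE 0.15) for miR-375-3p and 0.07 (SE 0.25) for miR-7a-5p. The part of this list in the candidate's age steps was not tested.

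Outside the adrenal gland the candidate was near the counting limit. In 286 libraries of 10 organs it had 55 counts, with 41 libraries at 1 count, 4 at 2 and 2 at 3. The adrenal gland held 98.7% of all its counts, with an exact binomial 95% interval of 98.3 to 99.0%. These intervals, and the Poisson intervals given for organs, cover counting error only. A library at 0 allowed up to 3 counts, which came to 0.364 to 9.51 CPM, with a median of 1.10 CPM, depending on its depth.

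The highest CPM outside the adrenal gland was 2.90, from 3 counts in liver replicate 4 of females at week 6. The other library with 3 counts was brain replicate 4 of females at week 104, at 2.58 CPM. The authors noted an unusually low share of miRNA reads in that brain library. It held 3 of the 13 brain counts and 3 of the 6 at that age. The lowest adrenal library was 4.83 times above the highest of these. The candidate was the only miRNA of the table for which every adrenal library lay above every other library, 0.162% of all miRNAs. It was chosen on this contrast, so the share says nothing further about it. The next highest share of counts in the adrenal gland was 57.7%, for miR-351-5p.

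Pooled over libraries, liver was at 0.157 CPM (5 counts, Poisson 95% interval 0.0509 to 0.366) and brain at 0.134 CPM (13 counts, 0.0712 to 0.229). Skeletal muscle was at 0.0900 CPM (7 counts, 0.0362 to 0.185), thymus at 0.0873 (6 counts, 0.0320 to 0.190) and spleen at 0.0866 (5 counts, 0.0281 to 0.202). Testis was at 0.0861 CPM (4 counts, 0.0235 to 0.220), lung at 0.0473 (7 counts, 0.0190 to 0.0975) and heart at 0.0411 (4 counts, 0.0112 to 0.105). Uterus was at 0.0299 CPM (3 counts, 0.00617 to 0.0875) and kidney at 0.00693 (1 count, 0.000175 to 0.0386). Each organ's interval overlapped that of the next in this order. The organs at the ends of the order, liver and kidney, did not overlap, but 3 of the 5 liver counts came from a single library. Without that library liver was at 0.0649 CPM (2 counts, 0.00785 to 0.234) and overlapped kidney. Brain did not overlap kidney either, and without its highest library it was at 0.104 CPM (10 counts, 0.0499 to 0.192), still above kidney's interval. The same step took spleen to 0.0537, heart to 0.0214 and kidney to 0 CPM, so some places in this order rested on single libraries. The intervals leave out differences between rats, so the order is a description and not a test.

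The pooled adrenal level of 32.2 CPM was 508 times that of all other organs together (95% interval 390 to 676). That ratio is lower with all 320 libraries, where the pooled level elsewhere was 0.107 CPM instead of 0.0632 CPM. The closest organ was liver, at a ratio of 205 (87.8 to 632), then brain, at 240 (140 to 452). Without the liver library with 3 counts the liver ratio was 496 (137 to 4096), and brain was then the closest organ. Without the brain library with 3 counts, the brain ratio was 309 (168 to 644). By organ and age, 11 of 40 combinations had 0 counts and the highest had 6, in brain at week 104. Differences between ages outside the adrenal gland were not tested.

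**Figure D3:**
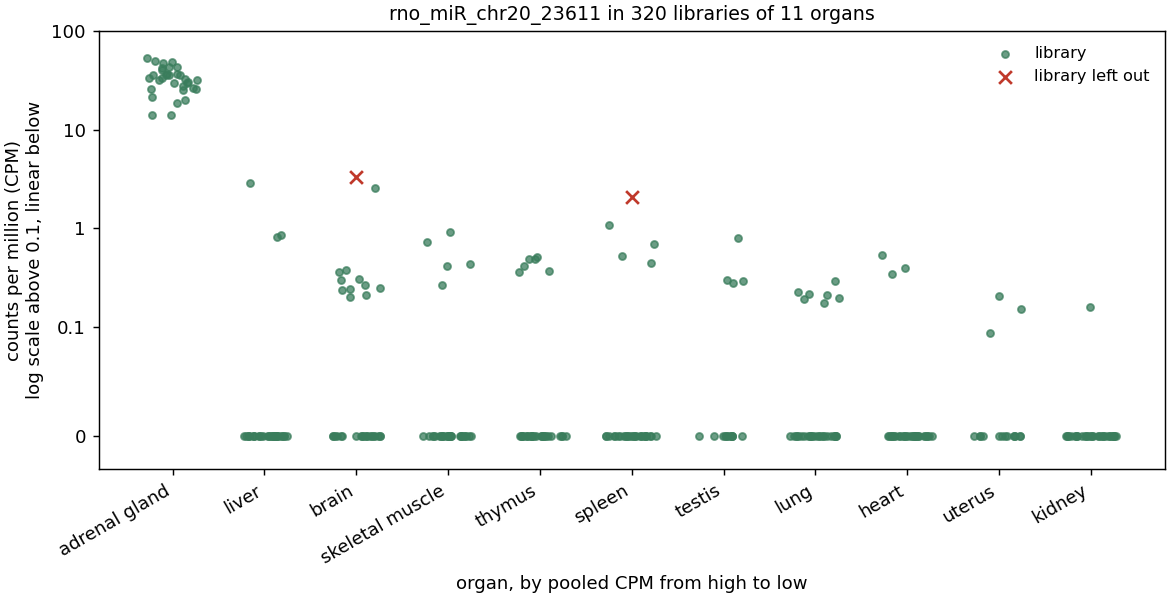
Candidate CPM in each of 320 libraries (points) by organ, ordered by pooled CPM, on an axis that is logarithmic above 0.1 and linear below. All 32 adrenal libraries lie between 14.0 and 53.3 CPM, no other kept library is above 2.90 CPM, and crosses mark the 2 libraries left out.

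The removed libraries had more counts than any kept library outside the adrenal gland. The brain library held 22 counts, or 3.35 CPM (Poisson 95% interval 2.10 to 5.07), and the spleen library 18 counts, or 2.09 CPM (1.24 to 3.31). The 3 other rats of either group were all at 0. No library of uterus, the organ with which the authors' clustering grouped both, had more than 1 count. The levels in the removed brain and spleen libraries were 10.1 and 6.31% of the adrenal mean. The removed libraries also held other organs' candidates. The testis candidate rno_miR_chrX_48878 had 171 counts in the brain library, against at most 12 in any kept brain library, and 324 in the spleen library, against at most 5 in any kept spleen library. With all 320 libraries the adrenal share was 97.7%, against 98.7% without these libraries.

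Over the 44 means of organ and age, on log2(CPM + 1), the known miRNAs most like the candidate were miR-494-5p (r = 0.67), miR-219a-1-3p (r = 0.66), miR-196c-3p (r = 0.66), miR-351-3p (r = 0.65) and miR-450a-3p (r = 0.64). The means share their rats across organs, and r is a description only. All 5 had their highest mean in adrenal gland, but none was as restricted to it. The most abundant was miR-351-3p at 17.6 ± 15.7 CPM (SD, n = 32) in adrenal gland, with 4.58 ± 2.72 CPM in lung, the next organ. For miR-219a-1-3p the values were 14.96 ± 4.79 CPM (SD, n = 32) and 8.64 ± 3.07 CPM in thymus. The others were at 13.8 (miR-196c-3p), 10.7 (miR-450a-3p) and 2.23 CPM (miR-494-5p), and the adrenal share of counts of all 5 was 38.6 to 56.7%.

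Their mature sequences are shown, with the seed in capitals, to compare the 5 seeds with each other.
rno-miR-494-5p: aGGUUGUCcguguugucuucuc
rno-miR-219a-1-3p: aGAGUUGCgucuggacgucccg
rno-miR-196c-3p: aCAACAACaccaaaccaccuga
rno-miR-351-3p: gGUCAAGAggcgccugggaac
rno-miR-450a-3p: uAUUGGGAacauuuugcauaa
The 5 miRNAs had 5 different seeds. None could have that of the candidate, because no other table sequence has the same bases 2 to 8. The same holds for miR-128-3p, which varied with the candidate across adrenal libraries, and miR-10b-5p, the most abundant adrenal miRNA.
rno-miR-128-3p: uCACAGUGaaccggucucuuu
rno-miR-10b-5p: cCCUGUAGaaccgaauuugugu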

How the data were processed

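The deposited values are counts of reads per miRNA without normalization, which the authors made by trimming with fastp 0.23.2, keeping reads of 16 to 35 bases and aligning them with Bowtie 1.3.1. Candidates were predicted with miRDeep2 on pooled reads and build Rn7; how reads were counted on candidates is not given in the sources used here. CPM were computed from column totals over 616 miRNAs. Age and sex were tested with edgeR 4.0.16 (quasi-likelihood, TMM) in R 4.3.3, in 1 fit of 8 groups of sex and age, all 616 miRNAs tested and p-values adjusted over them by Benjamini-Hochberg, threshold 0.05; age contrasts average the sexes. Correlations used 100000 two-sided permutations in Python 3.11.15 with SciPy 1.17.1. Named miRNAs were the candidates, the nearest by rank, organ pattern and correlation, and cell type markers. The candidate and the lists were chosen with earlier results of these data known. Alternatives were DESeq2 1.42.0, library size with and without miR-10b-5p, a mean count of at least 10, lane, a replicate block, and leaving out replicates or, chosen after seeing the data, single libraries. Lanes came from the study's sample table. All 48 pairs of adrenal replicates differed beyond counting error (lowest chi-square over its degrees of freedom 28.9).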

Additional observations from a re-analysis of the deposited data

Results flagged for a closer look

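Counts of the candidate appeared in both libraries that were left out of the comparisons, above the 3 counts that a library at 0 allows. Brain replicate 3 of males at week 6 had 22 counts and spleen replicate 4 of females at week 104 had 18 counts, while the 3 other rats of either group were at 0. The trait was not this candidate's alone: of the other candidates highest in other organs, 2 of 6 in the brain library and 6 of 11 in the spleen library were in CPM above every kept library of that organ. The share of all miRNAs that did so was not computed, so these counts have nothing to be read against. Both libraries were sequenced in lane 3, where the 34 kept libraries of other organs had 4 counts together. In none of the 8 adrenal groups did a single rat stand far enough from the other 3 to be singled out. The nearest was female week 6 replicate 1, whose gap took up 0.769 of the range of its group, against a limit of 0.829. Groups at 0 to 3 counts were not examined in this way.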

How the results depend on the processing

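The rise from week 2 to 6 kept its direction in all alternatives run. Its log2 fold change and adjusted p in edgeR were 0.36 (0.205) with library size only, 0.39 (0.107) without miR-10b-5p in the totals, 0.48 (0.177) with lane, 0.48 (0.0621) with the replicate block and 0.47 (0.172) without lane 8. The call held with DESeq2 (0.0275) and with a mean count of at least 10 (0.00890). Leaving out a replicate number gave 0.42 to 0.59 (adjusted p 0.0317 to 0.222), and a single library 0.41 to 0.57. The fall from week 6 to 21 passed with library size only (−0.69) and without miR-10b-5p (−0.63, adjusted p 0.0146 in edgeR), and otherwise not, with adjusted p up to 0.719. Any age difference passed with library size only (0.0364), without miR-10b-5p (0.0224), with a mean count of at least 10 (0.0296) and without male week 21 replicates 1 and 3 (0.0417); without a replicate number it was 0.0455 to 0.382 and without a library 0.0284 to 0.274. The change from week 2 to 104 turned to −0.0801 and −0.0519 with library size only and without miR-10b-5p, and the sex difference to −0.131 and −0.0838 and, with lane, to −0.0036. With lane, the change from week 2 to 104 was 0.0862 and from week 6 to 21 −0.47. Without a replicate number or a library, the sex difference was −0.17 to 0.12 and −0.0457 to 0.12, and week 104 against 21 was −0.0234 to 0.26 and −0.0195 to 0.28. Beyond the choice of samples and totals, the cause was not tested. The interaction passed in no alternative.

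Mean CPM was 48.4 without miR-10b-5p in the totals, which are then smaller. The adrenal share was 97.7% with all 320 libraries and 97.7% with organs weighted equally, and the pooled level elsewhere was 0.107 CPM with all 320. Without its highest library, liver was at 0.0649 CPM. On TMM-scaled CPM, rho was 0.0099 for miR-10b-5p and 0.0894 for miR-10a-5p.

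Replicate numbers did not pair the libraries: 6 of 32 correlated best with their own number. The block changed the call of week 6 against 2 and no other call of the candidate. It moved the miRNAs called for the interaction from 13 to 6; other fits gave 5 (library size), 7 (without miR-10b-5p), 5 (lane), 34 (DESeq2), and 3 to 21 without a library or replicate number. For sex the 31 called became 8 with library size, 3 with lane and 6 to 51 without a library or replicate number. From week 6 to 21 the 121 became 44 with lane, 61 without lane 8 and down to 57 without a replicate number, and from week 21 to 104 the 98 became down to 56. From week 2 to 6 the 199 became 131 without lane 8. From week 2 to 104, 131 miRNAs were called higher and 146 lower, against 60 and 209 with library size and 75 and 210 without miR-10b-5p. The latter gave 70 and 124 from week 2 to 6 and 22 and 114 from week 6 to 21. For sex the 17 and 14 became 2 and 6, and 6 and 26. Single-library, lane 8 and correlation alternatives were chosen after seeing the data. Depth limits statements on organs at 0 to 3 counts a library.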
